A study of Homo sapiens with 8 samples.

Results

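Open chromatin was followed along 7.5 Mb of the short arm of human chromosome 6, from 26.0 to 33.5 Mb on the hg19 build, in cells with and without induced AIRE. All windows of the deposited table that start in this interval were taken, whatever their values: 2169 of 256141 windows (0.847%), which form 295 of the table's 35741 separate open regions once windows with gaps of 100 bp or less are merged. The interval was read in 3 pieces. The histone piece (26.0 to 27.9 Mb) held 291 windows in 55 regions, the zinc finger and olfactory piece (27.9 to 29.6 Mb) 217 windows in 41 regions, and the MHC piece (29.6 to 33.5 Mb) 1661 windows in 199 regions.

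The histone piece carries the largest cluster of replication-dependent histone genes, short intronless genes that are transcribed together in S phase to package newly made DNA, with butyrophilin genes (immunoglobulin-like surface proteins) among them. The next piece carries C2H2 zinc finger genes, whose products mostly bind DNA through their zinc fingers. It also carries odorant receptor genes, which are normally silent outside sensory neurons. The major histocompatibility complex (MHC) holds class I genes for presenting peptides from inside the cell. Its class II genes serve to present peptides in specialised immune cells, and its transporter and proteasome genes supply peptides to class I. Between class I and class II lies the class III stretch, with complement and tumour necrosis factor genes. RefSeq's chromosome 6 genes (GRCh38.p14, used for names and order only) include 55 histone genes of this family, 6 for linker histone H1, 12 for H2A, 15 for H2B, 10 for H3 and 12 for H4. Between the last of them and HLA-F lie 38 protein-coding genes, 11 of them zinc finger and 16 olfactory receptor genes. From HLA-F to HLA-DPB1 lie 128 protein-coding genes, among them 8 class I, 13 class II, 4 antigen-processing, 4 complement and 3 TNF-family genes. The windows carry no gene names and no hg19 annotation was used here, so the regions below are given by position and are not assigned to genes. Histone, class I, class II and C4 genes have near-identical copies, and how reads that match several copies were handled is not given in the sources used here.

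The libraries came from AIRE-Tet cells, a Tet-On Advanced derivative of HEK293 (an established human embryonic kidney line) in which doxycycline switches on human AIRE. AIRE is a nuclear protein of medullary thymic epithelium that raises transcription of genes otherwise limited to single tissues. In FAIRE-seq, the DNA sequenced is what is left in the aqueous phase when fixed chromatin is extracted with phenol and chloroform, which is enriched for DNA with few nucleosomes. Etoposide traps topoisomerase II on cut DNA. The 4 groups of 2 biological replicates were Control (untreated), Dox (1.5 µM doxycycline), Etop (2 µM etoposide for 24 h) and DoxEtop (1.5 µM doxycycline, then 2 µM etoposide for 24 h after 24 h of induction). The sample labels used here give no length of doxycycline treatment for Dox. Where Dox is set against DoxEtop, as also in the interaction, length of induction cannot be told apart from etoposide. All groups carry the inducible AIRE construct; whether the line is a single clone is not stated. Doxycycline on cells without that construct was not analysed here, so an effect of the drug cannot be told apart from one of AIRE, and "induced" below means given doxycycline. FAIRE signal is an average over cells, so fewer cells with an open site and a less open site in each cell cannot be told apart.

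Window counts summed to 4489871 to 5305079 per induced library and to 4568818 to 8275911 per other library. Levels are CPM, counts divided by the column total after TMM scaling, and relative levels are differences in log2 CPM. Across the top windows (those of highest mean level) of the 295 regions, log2 CPM correlated at 0.386 to 0.708 between replicates, at 0.436 to 0.727 between groups of the same induction state and at 0.114 to 0.678 between libraries of different induction state (regions are not independent replicates). Control replicate 1 stood apart from its group here: it correlated at 0.509 with Control replicate 2 and at 0.599 to 0.678 with the induced libraries, whereas Control replicate 2 correlated with those at 0.114 to 0.275. No check of AIRE itself was made here, so whether this library's label is right was not tested. Counts of calls are therefore also given without single libraries below.

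Open regions were denser in the MHC than in the other pieces. The MHC held 51 regions per Mb, against 28.9 in the histone piece and 24.1 in the zinc finger and olfactory piece. MHC regions were also wider, with a median of 450 bp and 26 regions over 1 kb, while the histone piece had a median of 300 bp with 2 such regions and the zinc finger and olfactory piece a median of 400 bp with none. The median over the whole table was 350 bp. The regions covered 109 kb of the MHC, 20.6 kb of the histone piece and 15.5 kb of the zinc finger and olfactory piece. Gaps between neighbouring regions had a median of 10.5 kb, and the longest, 536 kb, ran from 28984601 to 29521050. Inside the MHC, gaps of 223 kb and 201 kb flanked a single window at 32604601, so that 32381551 to 32805550 held no other window of the table. How the authors chose the windows to list is not given in the sources used here, so these gaps mark only where no window was listed.

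The 3 strongest regions of the stretch lay within the highest 2.14% of the table by level, far below its maximum. Mean levels over the 8 libraries reached 9.56 CPM at the window starting at 31830701 in the MHC, which ranked 571 of 35741 regions, 9.37 CPM at 31926801 (rank 658) and 9.13 CPM at 31707551 (rank 765), where the table reached 127 CPM. The highest window was at 7.79 CPM in the zinc finger and olfactory piece (28891751) and at 7.26 CPM in the histone piece (27440801). The median region peaked at 4.18 CPM in the MHC, 3.91 in the zinc finger and olfactory piece and 3.31 in the histone piece, with 3.57 over the table.

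The induced libraries lay below the others in all 3 pieces. The median window of the stretch had a relative log2 level of 0.089 and 0.164 in the Control libraries and 0.128 and 0.154 in Etop, against -0.048 and -0.1 in Dox and -0.139 and -0.02 in DoxEtop. The 4 induced libraries did not overlap with the 4 others, at -0.077 ± 0.0531 against 0.134 ± 0.0335 (SD, n = 4 each), a difference of -0.211. The histone piece differed by -0.316, the zinc finger and olfactory piece by -0.183 and the MHC by -0.202, each without overlap, whereas the rest of chromosome 6 differed by 0.037 with overlapping libraries. In the histone piece 1 induced library, DoxEtop replicate 1, lay far below the other 3, at -0.323 against -0.059 to -0.042. The stretch took 0.814 ± 0.0263% of all window counts in induced libraries and 0.941 ± 0.0243% in uninduced ones (SD, n = 4 each). No p is given for these summed levels, since the stretch was chosen with earlier results of these data known.

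**Figure D1:**
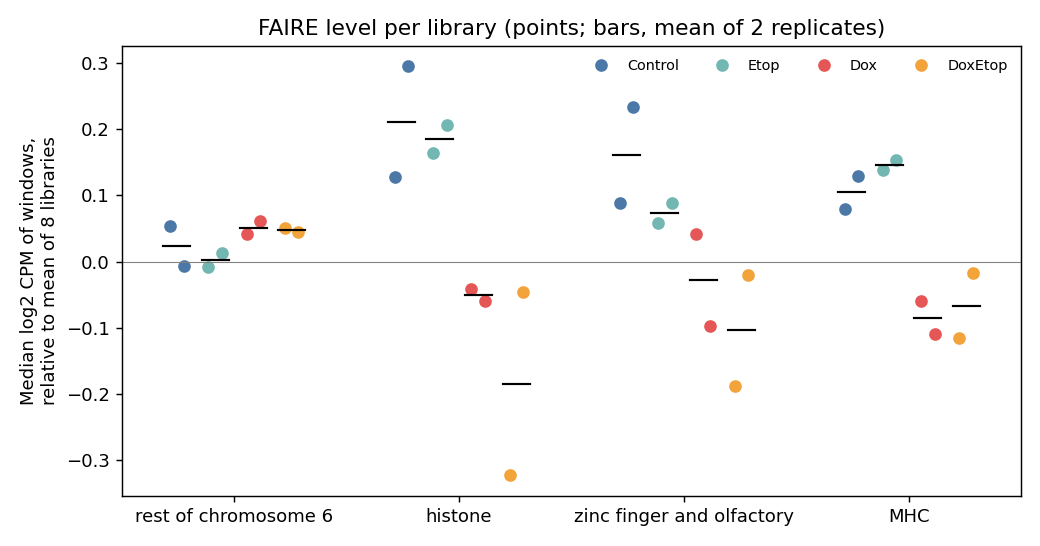
Relative FAIRE level of each library (y axis: median over windows of log2 CPM minus the window's mean over the 8 libraries) in the rest of chromosome 6 and in the 3 pieces; points are libraries colored by group and bars are means of 2 replicates. In each piece all 4 induced libraries (red and orange) lie below all 4 others, and in the histone piece DoxEtop replicate 1 is lowest at -0.323.

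Window by window, losses outnumbered gains. With etoposide as a second factor, 241 of the 2169 windows (11.1%) were lower in the induced libraries and 8 (0.369%) were higher at an adjusted p of 0.05 or less, where 6.17% of all windows in the table were lower and 1.27% higher (edgeR quasi-likelihood F test, Benjamini-Hochberg adjustment over the table). As merged regions, 71 of 295 (24.1%) were called lower by their strongest window (that of smallest p) and 1 was called higher, against 12.9% and 1.42% of all regions. The rest of chromosome 6 had 5.61% of windows and 13.5% of regions lower. The share of windows lower was 13.1% in the histone piece (38 windows), 11.1% in the zinc finger and olfactory piece (24) and 10.8% in the MHC (179). As regions, 10 of 55 (18.2%), 8 of 41 (19.5%) and 53 of 199 (26.6%) were lower. The median log2 fold change of all windows was -0.211 in the stretch and 0.036 in the table, and 280 windows (12.9%) had all 4 induced libraries below all 4 others, against 7.49% of the table. The opposite order was found at 52 windows (2.4%), against 4.98%. The excess over the table was not tested, because neighbouring windows share fragments and the stretch was not chosen blind to its values.

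These counts moved with single libraries and with the test, while the share in the stretch stayed above that of the table. Without Control replicate 1 the count was 272 windows (12.5% against 7.49% of the table). Without Control replicate 2 it fell to 103 windows (4.75% against 2.59% of the table), without DoxEtop replicate 1 to 136 (6.27% against 3.2%) and without Dox replicate 2 to 149 (6.87% against 4.1%). limma-voom called 6 windows lower (0.277% against 0.244%), nearly equal shares, and 2 higher. The authors' rule for listing windows is not given in the sources used here. Every listed window held at least 111 counts over the libraries, and a minimum on summed counts was assumed here and below. The uninduced libraries sum to 26766111 counts against 19999382. A window that is high only in them could pass such a minimum through them alone. Of the 241 lower windows, 160 would also have at least 129 counts (the table's most frequent sum) with the depths of the arms exchanged, among 1772 such windows of the stretch (9.03%, against 5.06% in the table).

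**Figure D2:**
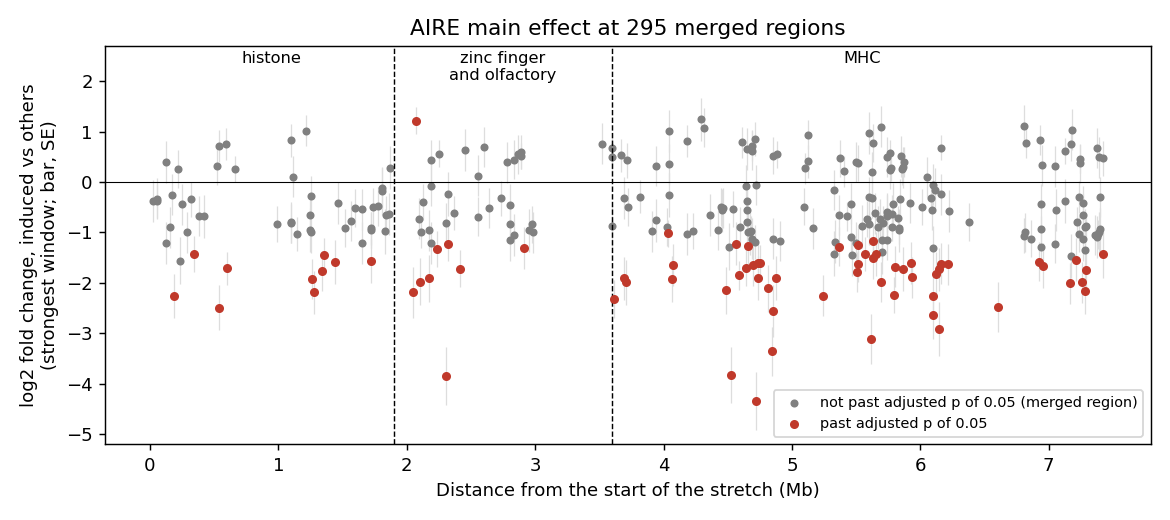
AIRE main effect at the strongest window of each of the 295 merged regions (y axis: log2 fold change, induced against other libraries, bars are SE) against distance from the start of the stretch in Mb; dashed lines part the 3 pieces. Red points are the 71 regions called lower and the 1 called higher, and the lowest point, in the MHC, is at -4.34.

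The losses were spread over the stretch and uneven. In 500 kb bins, the share of regions called lower was highest at 30.5 to 31 Mb (14 of 36, 38.9%) and 32 to 32.5 Mb (7 of 18, also 38.9%), followed by 28 to 28.5 Mb (7 of 20, 35%) and 27 to 27.5 Mb (5 of 16, 31.2%). It was below the table's 12.9% in 4 bins, at 6.25% from 27.5 to 28 Mb, 5.56% from 28.5 to 29 Mb, 10.5% from 31 to 31.5 Mb and 12.5% from 26 to 26.5 Mb. A low share of calls did not always go with an even level: the bin from 27.5 to 28 Mb had 1 of 16 regions called, but its windows differed by -0.5 in median level, with no overlap between the arms, and 15 of its 16 regions had a negative log2 fold change. From 29.5 to 30 Mb the arms had the same median level (difference 0.001) although 3 of 15 regions were called lower. In 4 places at least 3 neighbouring regions were called lower in an unbroken run, chosen for mention after their values were seen: 5 regions from 27263951 to 27441150 in the histone piece, and 6 from 30720051 to 30845800, 3 from 31509601 to 31515550 and 4 from 32121351 to 32158300 in the MHC.

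**Figure D3:**
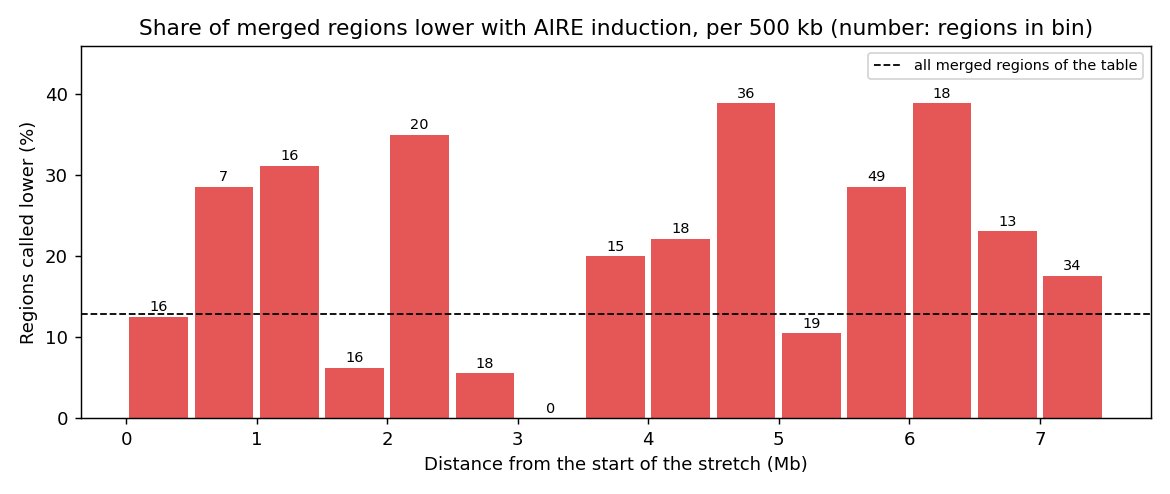
Share of merged regions called lower with AIRE induction (y axis, percent) in 500 kb bins (x axis: distance from the start of the stretch in Mb); the number over each bar is the count of regions in the bin and the dashed line is the table's 12.9%. The bins at 4.5 and 6 Mb reach 38.9%, and the bin at 3 Mb holds no window of the table.

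In the histone piece, the region with the largest loss was at 26537451 to 26537800. Its window starting at 26537651 had 23 and 41 counts in Control, 66 and 22 in Etop, 7 and 5 in Dox, and 0 and 8 in DoxEtop. Every induced library was below every other, at 1 ± 0.698 against 5.8 ± 2.81 CPM (SD, n = 4 each), 5.79-fold lower with a 95% counting interval of 3.62 to 9.75. Losses and gains of the AIRE main effect were named only where the arms did not overlap. That separation is therefore set by the choice, here and below. The log2 fold change was -2.49 (SE 0.454, edgeR adjusted p = 0.000133). The next 500 bp region, starting at 26538401, is among the 3 strongest of the piece at 6.9 CPM, and it did not pass the test (log2 fold change 0.34, edgeR adjusted p = 0.444). The single window at 26189201 had 23 and 36 counts in Control and 32 and 22 in Etop, against 5 and 4 in Dox and 4 and 5 in DoxEtop. It was 4.78-fold lower in the induced libraries, which lay close together (log2 fold change -2.26, SE 0.445, edgeR adjusted p = 0.000397). Its 131 counts would be 108.5 with the depths exchanged, so its listing rests on the uninduced libraries.

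The other histone-piece losses named by the rule were smaller. The window at 27280601, in a 900 bp region, had 28 and 41 counts in Control, 55 and 16 in Etop, 9 and 6 in Dox and 4 and 4 in DoxEtop (log2 fold change -2.19, edgeR adjusted p = 0.000289). At 26597001 the counts were 66 and 79, 46 and 25, 15 and 8, and 4 and 21 in the same order, a log2 fold change of -1.71, and DoxEtop replicate 2 came closest to the others. At 27342951 the log2 fold change was -1.76. The strongest region of the piece, 27440551 to 27441150, belongs to the run of 5 called regions, but only its edge carried the call. Its first window, at 27440551, had a log2 fold change of -1.58 (SE 0.434, edgeR adjusted p = 0.0142), while its top window, at 27440801, had 0.17 (edgeR adjusted p = 0.719), at 7.65 ± 1.08 CPM with induction and 6.87 ± 2.25 CPM without it (SD, n = 4 each). The widest region of the piece, 27218751 to 27219950, held 2 of the 8 windows that were higher. The larger of these, at 27219501, had 61 and 22 counts in Control, 8 and 17 in Etop, 54 and 31 in Dox and 29 and 39 in DoxEtop (log2 fold change 1.02, SE 0.307, edgeR adjusted p = 0.0271). Control replicate 1, the highest of all 8 by count there, goes against the direction, and the region as a whole did not pass (adjusted p of the merged region 0.116).

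In the zinc finger and olfactory piece, the region at 28303351 to 28303550 was nearly emptied in the induced libraries. Its first window had 18 and 48 counts in Control and 55 and 16 in Etop, against 3 and 0 in Dox and 0 and 4 in DoxEtop. The arms did not overlap, as naming required, at 0.341 ± 0.404 against 5.19 ± 2.79 CPM (SD, n = 4 each), 14.9-fold lower with a 95% counting interval of 7.04 to 37.8. The log2 fold change was -3.84 (SE 0.576, edgeR adjusted p = 5.69e-06). Its 144 counts would be 111.7 with the depths exchanged, below the 129 used above, so by that measure its listing rests on the uninduced libraries. The neighbouring region, 28303701 to 28304100, did not pass the test: its strongest window had a log2 fold change of -0.81 and its top window -0.12 (edgeR adjusted p = 0.866).

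Other losses of this piece named by the rule were at 28176101 (log2 fold change -1.91), 28411251 (-1.72), 28911451 (-1.31) and 28317651 (-1.22). The last was the smallest and the most even, with 41 and 35 counts in Control, 35 and 28 in Etop, 11 and 10 in Dox and 12 and 13 in DoxEtop (edgeR adjusted p = 0.0174). With the depths exchanged, 28176101 and 28911451 would have 114.5 and 120.5 counts, below 129. The call at 28911451 ended under 8 of 14 other settings and the call at 28317651 under 4 of 15. Regions starting at 28048601 (log2 fold change -2.19), 28104401 (-1.98) and 28234701 (-1.32) were also called lower. Their arms overlapped at the strongest window, so the rule did not name them.

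The only merged region of the stretch called higher lies in this piece, at 28072351 to 28072900, and holds 5 of the 8 higher windows. Its window at 28072551 had 34 and 43 counts in Dox and 51 and 43 in DoxEtop, against 25 and 32 in Control and 24 and 15 in Etop. All 4 induced libraries were above all 4 others, as naming required, at 8.5 ± 1.42 against 3.63 ± 0.793 CPM (SD, n = 4 each), 2.34-fold higher. The log2 fold change was 1.22 (SE 0.274, edgeR adjusted p = 0.00215), and it passed under all 15 other settings, from 1.1 to 1.4. The strongest windows of the piece did not pass the test: the log2 fold change was 0.26 at 28891751, in the widest region, -0.04 at 28129501 and -0.13 at 28367451.

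The lowest log2 fold change of the stretch was in the MHC. The window at 30720401, in the region 30720051 to 30720600, had 13 and 25 counts in Control and 61 and 33 in Etop, against 1 and 0 in Dox and 2 and 2 in DoxEtop. The induced libraries were at 0.24 ± 0.184 CPM and the others at 5.33 ± 3.27 (SD, n = 4 each), 20.1-fold lower with a 95% counting interval of 8.4 to 63. The log2 fold change was -4.34 (SE 0.573, edgeR adjusted p = 6.14e-07), the smallest adjusted p of the stretch. Its 137 counts would be 105.3 with the depths exchanged, below the 111 of the lowest window in the table. Its listing thus rests on the uninduced libraries, and the opposite difference would have fallen short of that minimum. The region's top window had -0.54 (edgeR adjusted p = 0.305), so the near-complete loss covered part of the region. This region opens the run of 6, which ends at 30845551 with 19 and 64 counts in Control, 45 and 22 in Etop, 1 and 3 in Dox and 4 and 3 in DoxEtop. There the log2 fold change was -3.36 (SE 0.49, edgeR adjusted p = 3.46e-06) and the arms were again apart, as naming required. The strongest windows of the 4 regions between them had log2 fold changes of -1.9, -1.6, -1.6 and -2.11.

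The widest region of the stretch, 30523151 to 30525400 in the MHC, lost signal mainly at a narrow site inside it. Of its 39 windows, 5 were called lower. The last of these was apart from the others, at the region's end (30525251, log2 fold change -1.38, edgeR adjusted p = 0.0205). The lowest, at 30524651, had 25 and 36 counts in Control and 44 and 29 in Etop. Dox had 4 and 0 there, and DoxEtop 0 and 3. The arms were apart, as naming required, at 0.339 ± 0.398 and 5.27 ± 1.57 CPM (SD, n = 4 each), 14.6-fold lower (log2 fold change -3.83, SE 0.553, edgeR adjusted p = 2.98e-06). Its 141 counts would be 109.5 with the depths exchanged, so the same limit holds. At 30525001, in the same region, the induced libraries had 7.55 ± 0.947 CPM and the others 6.05 ± 2.04, with overlap (log2 fold change 0.35, edgeR adjusted p = 0.445). At the 3 listed windows from 30524601 to 30524701 the induced libraries were at 0.339 to 0.75 CPM and the others at 4.84 to 5.27. No window starting between 30524451 and 30524601 was in the table, and at 30524451 the arms were at 2.43 and 3.64 CPM.

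**Figure D4:**
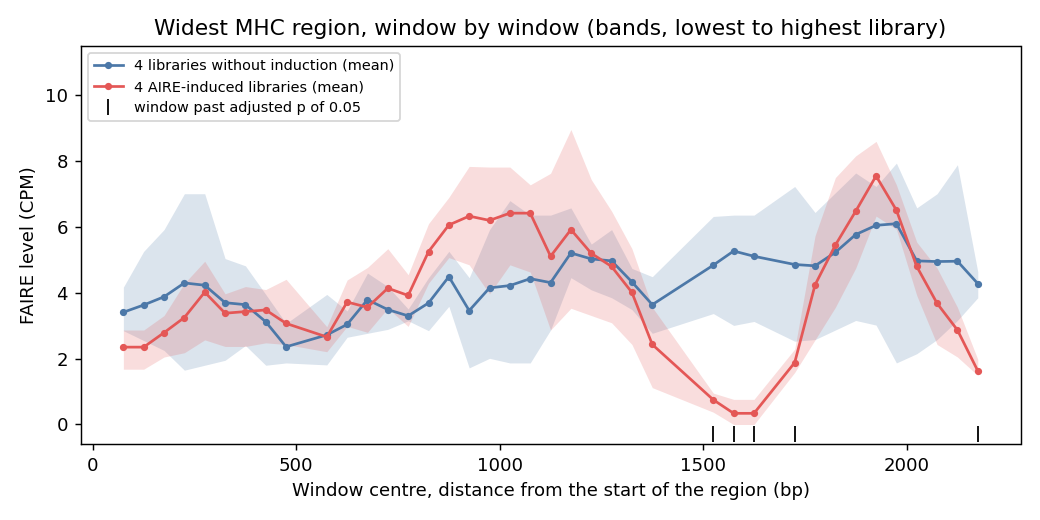
FAIRE level (y axis, CPM) of each window of the widest MHC region against distance from its start in bp; lines are means of 4 libraries, bands run from the lowest to the highest library and ticks mark the 5 windows called lower. The induced libraries drop to 0.339 CPM on average at about 1575 bp, where the others are at 5.27, and return to 7.55 at 1925 bp.

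Further MHC losses named by the rule were at 31620701 and 32145551. The first, in a 1550 bp region, had 18 and 42 counts in Control, 52 and 32 in Etop, 0 and 4 in Dox and 1 and 8 in DoxEtop (log2 fold change -3.12, SE 0.498, edgeR adjusted p = 1.66e-05). The top window of its region had 0.25 (edgeR adjusted p = 0.643). The second, in a 200 bp region of the run at 32121351 to 32158300, had 14 and 60, 42 and 22, 7 and 0, and 0 and 7 counts in the same order (log2 fold change -2.92, SE 0.533, edgeR adjusted p = 0.00014). With the depths exchanged, the counts at 31620701, 32145551 and 30845551 would be 125, 121.8 and 126.8, so by the minimum of 129 the listing of all 5 MHC losses named by the rule rests on the uninduced libraries. At all 5, Control replicate 1, the library most like the induced ones, had the fewest counts of the 4 uninduced libraries. The lone window at 32604601, between the long gaps, had 12 and 37, 47 and 22, 2 and 6, and 2 and 6 counts, a log2 fold change of -2.48 (edgeR adjusted p = 0.000434). It was singled out after its values were seen. Most of its counts lay in the uninduced libraries, so the limit on its listing is the same.

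At the MHC's strongest windows the differences were small. The window at 31830701 had 95 and 67 counts in Control, 109 and 47 in Etop, 46 and 30 in Dox and 31 and 40 in DoxEtop. The arms did not overlap (7.27 ± 1.33 against 11.9 ± 2.6 CPM, SD, n = 4 each), the log2 fold change was -0.71 (SE 0.231, edgeR adjusted p = 0.0463), and the merged region did not pass (adjusted p 0.181); the window's call ended under 9 of 15 other settings. At 31926801 and 31707551 the log2 fold changes were -0.11 and -0.49, neither past the test. The merged region of 31707551 did not pass either (adjusted p 0.585). That of 31926801 was called lower (adjusted p 0.0277) through its last window, at 31927001 (log2 fold change -1.6, SE 0.417, edgeR adjusted p = 0.00935). The single higher window of the MHC was at 31126301 (log2 fold change 0.94, edgeR adjusted p = 0.0308).

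Windows of narrow regions and windows of low level were called lower at higher shares, in the stretch as in the table. These classes were chosen after the data were seen, and their differences were not tested. In regions up to 300 bp wide, 17.1% of the stretch's windows were lower, against 9.93% in the table. The shares were 13.3% and 7.27% for over 300 to 500 bp, 10.7% and 4.92% for over 500 to 1000 bp, and 7.58% and 4.97% for over 1000 bp. By mean level, 13.5% of the stretch's windows up to 3.05 CPM, 13.1% of those up to 3.97 CPM and 7.99% of those above it were lower (bounds that part the table into 3 equal classes), against 6.62%, 6.41% and 5.49% of the table. The histone piece had another order by width, with 5% lower in regions up to 300 bp (3 of 60 windows) and 25% in those over 500 to 1000 bp (21 of 84). Among the 30 strongest regions of the stretch, 6 (20%) were lower, close to the share among the 3575 strongest of the table (20.1%), each set being the highest 10% by level. Counted by region, the table's strongest were thus called lower at a higher share than all its regions (12.9%), and those of the stretch at a lower one (24.1% of all 295).

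**Figure D5:**
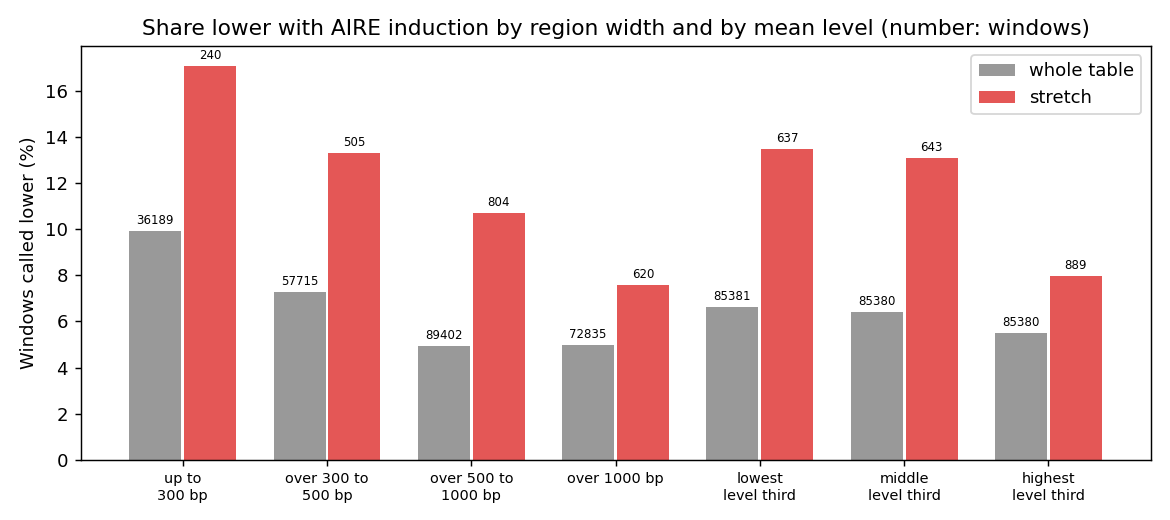
Share of windows called lower with AIRE induction (y axis, percent) by width of the merged region and by class of mean level, in the whole table (grey) and the stretch (red); numbers are windows in each class. In both sets the share is highest in regions up to 300 bp (17.1% and 9.93%), and the red bar is above the grey one in every class.

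Many called regions were not called at their top window. Of 69 regions in the stretch with at least 4 windows and a window called lower, 27 (39.1%) had their top window called, against 34.8% in the table. All windows were called in 3 of the 69, and in 420 of 4508 such regions of the table. The median log2 fold change was -0.77 at the top window and -1.65 at the strongest window, a median of 100 bp apart. The first is chosen by level and the second by p, so the second is the larger by construction. A further 14 regions of 1 to 3 windows had every window called, a count that was not made for the table. In the MHC the top window was called in 19 of 53 such regions, in the histone piece in 6 of 10 and in the zinc finger and olfactory piece in 2 of 6. This comparison was also chosen after the data were seen.

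AIRE induction was also compared within each etoposide state; these comparisons share no library, and each holds 2 libraries per group. Without etoposide (Dox vs Control), 34 windows of the stretch (1.57%) were lower and 0 higher, against 0.848% and 0.0156% of the table (edgeR), and 10 regions (3.39%) were lower and 0 higher, against 1.84% and 0.0168%. At an unadjusted p under 0.05, 284 windows were lower and 30 higher, together 14.5% of the stretch, against 10.9% of the table. The called regions were 1 histone region, 1 zinc finger and olfactory region and 8 MHC regions. With etoposide (DoxEtop vs Etop), 99 windows (4.56%) were lower and 5 (0.231%) higher, against 2.43% and 0.45%, and 36 regions (12.2%) were lower and 1 (0.339%) higher, against 5.36% and 0.613%. The lower ones were 5, 5 and 26 in the 3 pieces. The 5 regions lower in both comparisons make up 50% of the first list and 13.9% of the second. The 71 regions called lower over the 8 libraries were chosen on the average of these comparisons, which largely fixes the sign of each, and all 71 had a negative log2 fold change at their strongest window in both. In the MHC the medians over these were -1.61 without and -2.04 with etoposide, and in the histone piece -1.63 and -1.92. In the zinc finger and olfactory piece the medians were -1.23 and -2.07 over all 9 called regions, which include the 1 called higher. The test of the difference between the comparisons is the interaction, given below.

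Dox vs Control lost all its calls in the stretch without Control replicate 2, without Dox replicate 1 or without Dox replicate 2, and gave 62 lower windows without Control replicate 1. DoxEtop vs Etop fell to 64 lower windows when DoxEtop replicate 2 was left out, to 11 without Etop replicate 1 and to 4 without DoxEtop replicate 1. Such fits leave 1 library in a group, which is then assumed to vary like the other groups. DESeq2 called 3 and 29 windows lower in the 2 comparisons and limma-voom 0 in both.

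Without etoposide, the smallest region p was in the MHC at 31794651 to 31795750. Its window at 31795051 had 51 and 79 counts in Control against 4 and 6 in Dox, 8.49-fold lower with a 95% counting interval of 4.47 to 18.1 (log2 fold change -3.09, SE 0.553, edgeR adjusted p = 0.00234). The regions already named at 30845551 and 28303351 followed, with log2 fold changes of -3.76 and -3.83 (edgeR adjusted p = 0.00519 and 0.0146). With etoposide, the smallest was at 30720351, which had 76 and 39 counts in Etop against 2 and 3 in DoxEtop, 20.8-fold lower with an interval of 8.65 to 65.2 (log2 fold change -4.29, SE 0.636, edgeR adjusted p = 0.000106). At 28303351 the log2 fold change was -3.84 (edgeR adjusted p = 0.00387). With so few counts its value was loose: it ran from -8.12 to -2.85 with etoposide and from -7.78 to -2.75 without it, and the call ended under 4 of 14 and 4 of 13 other settings. At 30585151, 111 and 46 counts in Etop stood against 13 and 17 in DoxEtop (log2 fold change -2.18, SE 0.402, edgeR adjusted p = 0.00113). Its Control and Dox counts were 51 and 69 against 11 and 17.

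Cells given both treatments were also lower than untreated cells: DoxEtop vs Control called 46 windows lower (2.12%) and 1 higher (0.0461%) in the stretch, against 1.48% and 0.154% of the table by edgeR. DESeq2 called 6 lower and limma-voom 0.

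No window of the stretch passed the test for etoposide, and 0% of the table did (edgeR). At an unadjusted p under 0.05 were 104 windows of the stretch (4.79%, against 5.83% of the table), and DESeq2 called 1 window. That window, at 31744951 in the MHC, had 79 and 52 counts in Etop and 37 and 44 in DoxEtop, against 39 and 25 in Control and 17 and 15 in Dox. The etoposide-treated libraries were all above the others, at 9.59 ± 2.19 against 3.75 ± 0.671 CPM (SD, n = 4 each), with a log2 fold change of 1.34 (SE 0.261, edgeR adjusted p = 0.249). The next smallest were at 26659851 (log2 fold change -1.38, edgeR adjusted p = 0.618) and 30720401 (1.62, edgeR adjusted p = 0.692). The last is the window emptied in the induced libraries, and its Etop counts, 61 and 33, were above its Control counts, 13 and 25. Etop vs Control called 0 windows, with 95 (4.38%, against 5.57% of the table) at an unadjusted p under 0.05. DoxEtop vs Dox also called 0, with 83 (3.83%, against 4.26%). DESeq2 and limma-voom called 0 in both. By DESeq2 and limma-voom the etoposide main effect gave 1 and 0 windows. A window that misses the threshold is not thereby shown to be unaffected by etoposide.

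The interaction, which tests whether AIRE induction acted differently with etoposide, called 0 windows in the stretch and 0% of the table by edgeR. At an unadjusted p under 0.05 were 68 windows of the stretch (3.14%, against 4.14% of the table). DESeq2 and limma-voom called 0. The regions with the smallest p were at 31831401, 27101551 and 32095951, each at an adjusted p of 1. At 27101551, in the histone piece, Etop had 3 and 10 counts, DoxEtop 21 and 40, Control 24 and 25 and Dox 19 and 13 (log2 fold change of the interaction 2.31, SE 0.805). At 31831401, in the MHC, it was -1.78 (SE 0.589), with 81 and 36 counts in Etop and 12 and 17 in DoxEtop against 36 and 36 in Control and 20 and 26 in Dox. With 2 libraries per group, a difference that misses the threshold does not show that induction acted alike in both states.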

How the data were processed

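FAIRE-seq reads (100 bp, paired-end) from 8 libraries were handled with Trim Galore, Bowtie2 and Bowtie on hg19, per the submitters' processing notes; their versions, the counting, the treatment of duplicates and any use of input are not given there. The authors' deposited table gives raw counts per 150 bp window, starting every 50 bp; every window held at least 111 counts over the libraries. Input libraries were not analysed here.

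edgeR 4.0.16 (R 4.3.3) was run on all 256141 windows (TMM, glmQLFit, glmQLFTest, two-sided, Benjamini-Hochberg at 0.05): an additive model of induction and etoposide, and a model with 1 mean per group. Simes' p per merged region was adjusted over 35741 regions. The common biological coefficient of variation was 26.3%. log2 CPM used a prior count of 2. Fold intervals are exact binomial (95%, Clopper-Pearson, pooled counts) and cover counting error only. Replicates exceeded sampling noise (chi-square per degree of freedom 1.85 to 3.12). In simulated data, the test of the AIRE main effect recovered 10% of 100 windows changed 2-fold and 75% of 100 changed 4-fold, with 2 false calls. Only 200 windows were changed there, windows were drawn independently, and all had 1 common dispersion. These rates therefore need not hold for the real windows, which overlap.

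Named regions: per piece, the 5 lowest and 3 highest log2 fold changes among called regions whose arms do not overlap at a called strongest window, the 3 highest levels and the widest; in other comparisons, the 3 smallest region p. Members and lists were chosen with earlier results of these data known. Alternatives were DESeq2 1.42.0, limma-voom (limma 3.58.1), RLE, totals or loess scaling, an equal-arm count minimum (129 counts as is and with the arms' depths exchanged), a replicate block, 500 bp merging, a prior count of 0.5, and leaving out each library.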

Additional observations from a re-analysis of the deposited data

Results flagged for a closer look

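Among 62 sets of 4 libraries (the induced and the other libraries, for the levels of the stretch and its pieces and for the named windows of the AIRE main effect), 3 had a library far from the rest by Dixon's test of the gap over the range at the 95% level. Chance alone flags about 1 in 20 such sets. In the histone piece, DoxEtop replicate 1 had a median relative log2 level of -0.323, while the other 3 induced libraries were at -0.0586 to -0.0416. At the window starting at 27219601, in the widest histone-piece region, Control replicate 1 had 9.27 CPM and the other 3 uninduced libraries 3.29 to 3.89. At 30525001, in the widest MHC region, Etop replicate 1 had 3.02 CPM and the other 3 uninduced libraries 6.74 to 7.23. The histone level difference was -0.249 without DoxEtop replicate 1.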

How the results depend on the processing

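Leaving out 1 library at a time, the AIRE main effect gave 103 to 272 lower and 4 to 11 higher windows in the stretch (19 to 43, 8 to 26 and 76 to 203 lower in the histone, zinc finger and olfactory, and MHC pieces), and 31 to 80 merged regions lower and 1 to 2 higher. Dox vs Control gave 0 to 62 lower and 0 to 1 higher, DoxEtop vs Etop 4 to 141 and 0 to 23, and etoposide and the interaction 0 to 0. Level differences ranged from -0.231 to -0.194 (stretch), -0.343 to -0.249 (histone), -0.214 to -0.146 (zinc finger and olfactory) and -0.218 to -0.182 (MHC). limma-voom gave 6 lower and 2 higher windows (1, 0 and 5 lower by piece), 1 merged region lower and 0 higher, and 0 windows in either direction for Dox vs Control and DoxEtop vs Etop. DESeq2 gave 3 lower windows for Dox vs Control, 29 lower and 0 higher for DoxEtop vs Etop, and 1 for etoposide. The equal-arm minimum, with fewer windows tested (1772 of the stretch), gave 22 lower for Dox vs Control, 61 for DoxEtop vs Etop, 15 for the zinc finger and olfactory piece, and level differences of -0.149 (stretch) and -0.139 (MHC). The cause of the other shifts was not tested. At the uncalled window 28129501 the log2 fold change ranged from -0.21 to 0.13 and turned to 0.01, 0.13, 0.07 and 0.09 without Control replicate 1, Dox replicate 2, DoxEtop replicate 1 and Etop replicate 1.

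With the replicate number as a block, 227 windows and 70 merged regions were lower and 7 windows higher for the AIRE main effect, with 24 lower for Dox vs Control and 93 for DoxEtop vs Etop. The numbers only name the libraries: differences between replicates correlated at -0.0699 to 0.139 between groups. Of 571 values at named windows under other settings, 509 kept their direction and side of the threshold, 56 lost and 2 gained the call, and 4 turned. Windows with up to 3 counts, 24 to 66 per induced library and 0 to 7 per other library in the stretch, limit the precision of the largest folds.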
